A study of Mus musculus with 60 samples.

Results

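Interleukin receptor chains are the membrane proteins through which immune cells read the interleukins around them. Expression of 10 genes that encode such chains (Il17rb, Il7r, Il2rb, Il2rg, Il4ra, Il6ra, Il10ra, Il21r, Il27ra and Il18r1) was examined in spleen leukocytes of young mice. Members were all probe sets whose gene symbol or alias in the array annotation was one of these genes. The annotation gave 16 probe sets of 9 genes out of 45037 probe sets on the arrays, and none for Il2rg, which is not analysed here. The study compared female NOD mice, which develop autoimmune (Type 1) diabetes spontaneously, with NON mice, a closely related strain that resists the disease, and C57BL/6 (C57) mice, a more distant strain. Each strain was sampled at 4 weeks and at 2 weeks of age, with 5 mice in each of the 6 groups. In NOD mice infiltration of the islets becomes visible at about 4 weeks, and the paper calls both ages preinsulitis. The labels name no treatment, and each mouse had a 430A and a 430B array, 60 arrays in all. The values are MAS 5.0 signals, a linear measure of hybridization intensity, and all 16 member probe sets lie on the 430A array.

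Most of these chains pair with a shared partner to form a working receptor. The IL-2 receptor beta chain (Il2rb) binds IL-2 and IL-15, and the chains for IL-4 (Il4ra), IL-7 (Il7r) and IL-21 (Il21r) signal beside the common gamma chain encoded by Il2rg, all through Jak kinases and STAT transcription factors. Il6ra and Il27ra encode the specific chains for IL-6 and IL-27, which share gp130 (Il6st), Il10ra encodes the ligand-binding chain for IL-10, and the chains for IL-18 (Il18r1) and IL-25 (Il17rb) signal through adaptor proteins instead of Jak kinases. In spleen these receptors are carried mainly by T cells, NK cells, B cells and myeloid cells.

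Testing was limited to probe sets that reached a signal of 50 in 5 or more of the 30 mice. The filter kept 38293 probe sets, among them 15 of the 16 member probe sets, and at least 1 probe set for each of the 9 genes. The third Il10ra probe set (1456173_at) was not kept, with signals of 2 to 16.6. For each gene the brightest kept probe set is called its lead probe set. Tests were made with limma on log2(signal + 10), which understates differences of dim probe sets. P-values were adjusted by the Benjamini-Hochberg method across every kept probe set, and a difference is called at an adjusted p under 0.05. Fold values are ratios of mean signals. The median correlation of a mouse with the others of its group was 0.824 to 0.876, except for NOD replicate 3 of 4 weeks, at 0.739. The Gapdh 3'/5' signal ratio, which rises when RNA is degraded, was over 2 in 5 mice and highest in NON replicate 2 of 2 weeks, at 4, and NON replicate 1 of 4 weeks, at 3.15. Where a member's call was lost without these 6 mice, its adjusted p without them is given. Precision is limited by the number of arrays.

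**Figure D1:**
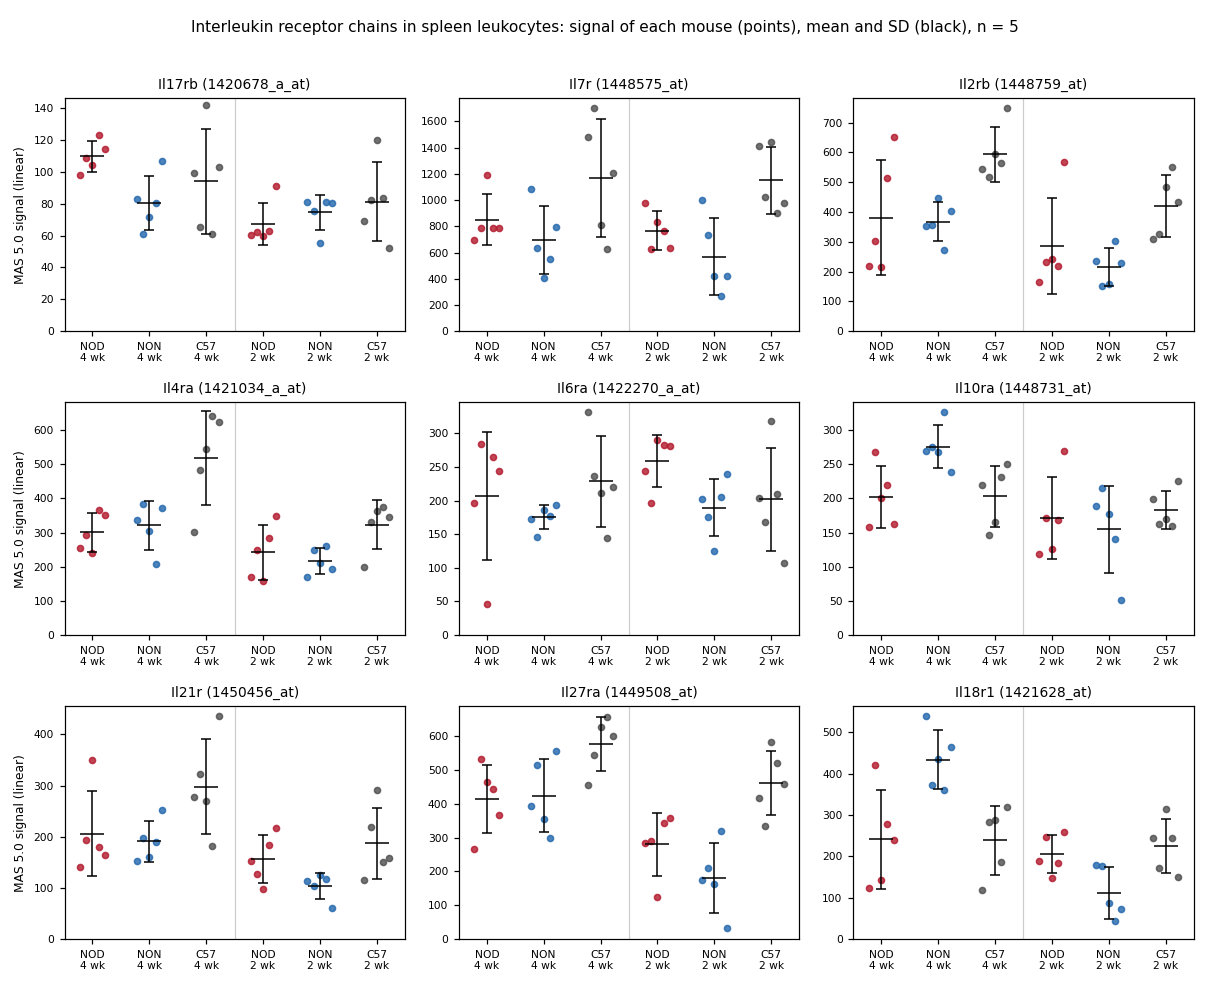
Signal of the lead probe set of each of the 9 receptor chain genes (vertical axis, linear MAS 5.0 signal from 0) in each mouse (points) of NOD, NON and C57 at 4 weeks and at 2 weeks (horizontal axis), with the mean and SD of each group in black (n = 5). The C57 mean was the highest of the strains for 6 of the 9 genes at 4 weeks and 8 of the 9 at 2 weeks, and in NON the 5 Il18r1 points of 4 weeks all lie above those of 2 weeks.

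The first question was whether any receptor chain set the strains apart at a given age. At neither age was a member probe set called. At 4 weeks the moderated F-test across the strains called 0 of the 15 member probe sets, where it called 1.51% of all probe sets tested, and at 2 weeks it called 0 of the 15, where it called 1.66% of all. At an unadjusted p under 0.05 there were 4 of the 15 member probe sets at 4 weeks, beside 13.4% of all probe sets, and 8 of the 15 at 2 weeks, beside 14.1%. The smallest adjusted p of a member was 0.23 at 4 weeks and 0.11 at 2 weeks. NOD mice were then set against the mean of both control strains, the comparison closest to the purpose of the study. Again 0 of the 15 member probe sets were called at 4 weeks, beside 0.804% of all, and 0 at 2 weeks, beside 0.499% of all. With shares this small, counts of 0 among 15 probe sets say little in these comparisons. At an unadjusted p under 0.05, 0 and 1 member probe sets stood out at 4 and 2 weeks, beside 12.7% and 9.44% of all. The plain tests of the study's methods, with the same adjustment, called 0 as well in each of these comparisons. In the fit of all 30 mice, 1 member probe set (Il27ra) was called across the strains at 2 weeks.

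The same strain differences were also averaged over both ages in the fit of all 30 mice, a comparison added after the data were seen. Here signals of chains of the receptors for IL-7, IL-2, IL-4, IL-21 and IL-27 were lower in NON than in C57. Those for IL-2 and IL-4 were also lower in NOD than in C57, on the lead probe sets. Without the 6 mice named above the Il2rb and Il4ra calls were lost in both strains. Both NOD calls were also lost in some fits that left out 1 mouse. The other Il4ra probe sets were not lower in NOD. Whether the probes hybridize equally in the strains was not tested. The F-test across strains called 5 of the 15 member probe sets (33.3%), 2 of Il7r and 1 each of Il2rb, Il4ra and Il27ra, beside 6.99% of all probe sets tested. Between NON and C57, 6 member probe sets of 5 genes were called and each was lower in NON. All probe sets were called at 4.71% in this contrast, and 2.71% were lower in NON. Between NOD and C57, 2 member probe sets (Il2rb and Il4ra) were called and were lower in NOD, beside 5.24% of all called and 2.94% lower in NOD. Between NOD and NON, 0 were called, beside 1.72% of all, and 3 member probe sets had an unadjusted p under 0.05, beside 12.1% of all. The NOD and NON contrasts with C57 share the same C57 mice. Over the 15 member probe sets the median log2 difference was -0.20 between NOD and C57, -0.50 between NON and C57 and 0.21 between NOD and NON, beside 0.07, 0.01 and 0.04 over all probe sets.

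**Figure D2:**
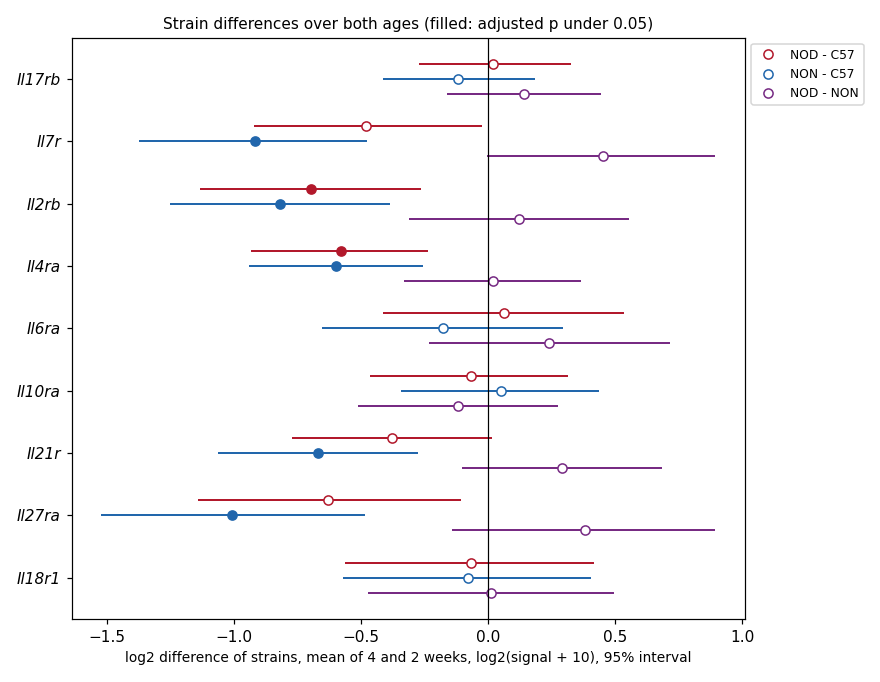
Difference between strains, averaged over 4 and 2 weeks, for the lead probe set of each gene (horizontal axis, log2 difference of log2(signal + 10), with its 95% interval). NOD against C57, NON against C57 and NOD against NON are shown from top to bottom for each gene, filled where the adjusted p is under 0.05. For NON against C57 the points of Il7r, Il2rb, Il4ra, Il21r and Il27ra are filled and lie between -0.60 and -1.01.

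Il7r, whose product is needed for the survival of resting T cells and for early lymphocyte growth, gave the clearest strain difference. Its promoter window in the RefSeq table of the GRCm38.p6 build (C57BL/6J reference, 250 bases before and 50 after the start), chr15:9529827-9530126 on the minus strand, is shown because GABP, an Ets family factor, is known to act at this promoter in mouse T cells. Capitals mark a match to CAGGAAGT, a letter string of Ets family sites, and a match to TTCNNNGAA, the palindrome that STAT dimers recognise, both searched on both strands.
Il7r: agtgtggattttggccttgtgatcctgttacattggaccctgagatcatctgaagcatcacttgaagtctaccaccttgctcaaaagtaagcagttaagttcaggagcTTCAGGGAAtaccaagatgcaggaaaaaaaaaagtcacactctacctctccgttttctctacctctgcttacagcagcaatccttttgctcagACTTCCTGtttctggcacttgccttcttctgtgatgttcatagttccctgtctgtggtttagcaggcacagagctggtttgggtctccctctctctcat
Of the 32851 promoter windows in the table, 3.33% held CAGGAAGT and 8.3% held TTCNNNGAA. The strings were chosen with the sequences in view, a match is a description of the letters, and 7 of the 10 genes had a window in the table.

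At 4 weeks the Il7r lead probe set (1448575_at) read 696.7, 786.5, 1188.2, 788.3 and 787.4 in NOD mice, 1086, 636.3, 407.7, 552.7 and 791.7 in NON mice and 1484, 1705.4, 809.8, 625.3 and 1204.7 in C57 mice. At 2 weeks it read 978, 627.2, 833.6, 766 and 632.4 in NOD mice, 1002.6, 731.2, 419, 267.3 and 423.2 in NON mice and 1412.3, 1020.1, 1442.9, 899.2 and 980.3 in C57 mice. The highest signals were in C57 mice at both ages and the lowest in NON mice, with overlap between the strains at each age. Averaged over ages, NON was at 0.545 of the C57 signal (log2 difference -0.92, SE 0.22, limma adjusted p = 0.0096), and the second Il7r probe set (1448576_at) was at 0.593 (log2 difference -0.71, SE 0.16, adjusted p = 0.0077). NOD lay between them, with a log2 difference of -0.48 from C57 (95% interval -0.92 to -0.03, adjusted p = 0.22) and 0.45 from NON (95% interval 0.00 to 0.89, adjusted p = 0.41). Both NON calls held in each of the 30 fits that left out 1 mouse and without the 6 mice named above.

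Il2rb gave a similar order. Its lead probe set (1448759_at) read 352.9, 357.3, 448.2, 272.5 and 402.6 in NON mice of 4 weeks against 543, 518.4, 593.5, 563.4 and 750.2 in C57, and 236.8, 151.2, 156.5, 302.9 and 229.5 in NON mice of 2 weeks against 308.3, 325.2, 484.4, 550.4 and 434.4 in C57. At both ages every NON mouse was below every C57 mouse, as for 1.84% of all probe sets at 4 weeks and 2.44% at 2 weeks. NOD mice spread widely, at 217.6, 304.1, 216.5, 514 and 651.8 at 4 weeks and 164.9, 231.3, 242.8, 217.3 and 568.2 at 2 weeks. At 4 weeks 4 of the 5 NOD mice were below every C57 mouse and 1 was within the C57 range, and at 2 weeks 4 were below every C57 mouse and 1 was above them all. Over both ages NON was at 0.574 of C57 (log2 difference -0.82, SE 0.21, limma adjusted p = 0.019, and 0.087 without the 6 mice) and NOD at 0.656 (log2 difference -0.70, SE 0.21, adjusted p = 0.048, and -0.62 with an adjusted p of 0.16 without the 6 mice). The NON call held in each of the 30 fits that left out 1 mouse, and the NOD call in 8 of them, with an adjusted p of up to 0.097. The NOD call was also lost with a pseudocount of 1 (adjusted p = 0.051), with no filter (0.055) and after quantile normalization (0.051). The second Il2rb probe set (1417546_at) had log2 differences of -0.50 in NON and -0.57 in NOD relative to C57 (adjusted p = 0.63 and 0.48), and was at 14.8 in NOD replicate 3 of 4 weeks and 22.2 in NON replicate 2 of 2 weeks, 2 of the 6 mice named above.

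Il4ra, the chain that binds IL-4 and IL-13, and Il21r, the receptor of the T helper cytokine IL-21, are neighbours on chromosome 7, 23.8 kb apart with 0 annotated genes between them. The Il4ra promoter window, chr7:125552021-125552320 on the plus strand, is shown because it holds the octamer ATGCAAAT (capitals), bound by Oct factors and known from B cell genes, which is in 1.74% of all windows.
Il4ra: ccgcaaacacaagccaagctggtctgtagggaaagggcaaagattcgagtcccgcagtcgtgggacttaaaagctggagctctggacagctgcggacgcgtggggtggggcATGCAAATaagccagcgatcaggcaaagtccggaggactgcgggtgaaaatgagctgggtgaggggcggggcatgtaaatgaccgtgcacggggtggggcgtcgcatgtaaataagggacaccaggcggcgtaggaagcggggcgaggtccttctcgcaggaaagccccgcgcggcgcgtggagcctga
The Il21r window held 0 matches to ATGCAAAT, CAGGAAGT, TTCNNNGAA or TGANTCA, the last a string of AP-1 sites found in 7.81% of windows.

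The Il4ra lead probe set (1421034_a_at) read 254.7, 292.5, 239.3, 367.5 and 352.1 in NOD mice, 336.3, 385.2, 305.5, 206.9 and 371.7 in NON mice and 301.4, 484.6, 543.9, 642.6 and 624.4 in C57 mice at 4 weeks. At 2 weeks it read 170.2, 247.8, 159, 283.2 and 348.8 in NOD, 168.9, 249.9, 210.9, 261.3 and 192.5 in NON and 199.6, 331.9, 364.5, 375.1 and 344.7 in C57. In C57, all mice but replicate 1 of each age were above every NON mouse of that age. Over both ages NOD was at 0.645 of C57 (log2 difference -0.58, SE 0.17, limma adjusted p = 0.039) and NON at 0.638 (log2 difference -0.60, SE 0.17, adjusted p = 0.034), and each call held in 18 of the 30 fits that left out 1 mouse, with an adjusted p of up to 0.082 and 0.079. Without the 6 mice the adjusted p was 0.17 and 0.088. The other Il4ra probe sets did not share this order. The probe set 1423996_a_at had a log2 difference of 0.24 between NOD and C57 and 1.11 between NOD and NON (adjusted p = 0.77 and 0.13), and 1447858_x_at had differences of 0.20 and 0.15 (adjusted p = 0.69 and 0.85).

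Il21r (1450456_at) averaged 206 ± 83.1 in NOD, 191 ± 39.8 in NON and 298 ± 92.7 in C57 at 4 weeks, and 156 ± 46.7, 104 ± 25.4 and 187 ± 69.5 in NOD, NON and C57 at 2 weeks (SD, n = 5). Over both ages NON was at 0.609 of C57 (log2 difference -0.67, SE 0.19, limma adjusted p = 0.038), a call that held in 20 of the 30 fits that left out 1 mouse, with an adjusted p of up to 0.088. NOD differed from C57 by -0.38 (95% interval -0.77 to 0.01, adjusted p = 0.28). The NOD value of 4 weeks included 349.9 in replicate 3, against 140.2 to 193.8 in the other NOD mice of that age.

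Il27ra, the receptor of a cytokine that both starts and restrains T helper responses, was the remaining chain called between NON and C57. At 2 weeks its probe set (1449508_at) read 285.2, 290.5, 123, 343.2 and 358.7 in NOD, 175.6, 209.4, 162.5, 319.6 and 33.8 in NON and 417.8, 334.9, 582.2, 519.8 and 459.4 in C57. At 4 weeks it read 265.3, 531.2, 463.2, 444.8 and 367.9 in NOD, 393.6, 514.2, 353.7, 299.7 and 555.4 in NON and 455.6, 543.1, 625.9, 657.5 and 601.2 in C57. Every NON mouse of 2 weeks was below every C57 mouse, and NON and C57 overlapped at 4 weeks. Over both ages NON was at 0.581 of C57 (log2 difference -1.01, SE 0.25, limma adjusted p = 0.016), also called in each of the 30 fits that left out 1 mouse, and NOD was at 0.668 (log2 difference -0.63, SE 0.25, adjusted p = 0.16).

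Of the 5 member probe sets called by the F-test over both ages, the count was 2 or 3 without any one of 5 C57 mice (2 without replicate 5 of 4 weeks or replicate 4 of 2 weeks, 3 without replicate 3 of 4 weeks or replicates 3 or 5 of 2 weeks), and 3 without the 6 mice named above, when both Il7r probe sets and Il21r were called.

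The second question was how each receptor chain changed between 2 and 4 weeks within a strain. In NON, Il18r1 and Il27ra were higher at 4 weeks. No chain was called in NOD or in C57, and the age changes were not shown to differ between the strains for any chain. In NON, 2 of the 15 member probe sets (13.3%) were called and both were higher at 4 weeks, beside 1.46% of all probe sets called and 0.812% called as higher. In NOD 0 were called, beside 0.146% of all, and in C57 0 were called, beside 0.46% of all. With shares this small, counts of 0 among 15 probe sets say little. At an unadjusted p under 0.05 there were 1 of the 15 member probe sets in NOD, 7 in NON and 2 in C57, beside 8.9%, 13% and 6.7% of all. The plain test of the study's methods, with the Benjamini-Hochberg adjustment used here, called 0 in NOD, 0 in NON and 0 in C57. The paper used that test without correction for multiple testing and listed Il17rb among its age differences particular to NOD. The median log2 difference of the 15 member probe sets between 4 and 2 weeks was 0.14 in NOD, 0.53 in NON and 0.14 in C57, beside 0.00, 0.00 and 0.03 over all probe sets. A positive difference was found for 11 of the 15 in NOD, 14 in NON and 14 in C57, beside 49.8%, 50.2% and 53.3% of all probe sets.

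Il18r1 encodes the ligand-binding chain of the receptor for IL-18, which drives interferon gamma production by NK and T helper 1 cells. RefSeq lists 3 promoter windows for it, and the one shown, chr1:40465756-40466055 on the plus strand, is the window that holds 2 matches to TTCNNNGAA (capitals). The others held 0 matches to any of the 4 strings.
Il18r1: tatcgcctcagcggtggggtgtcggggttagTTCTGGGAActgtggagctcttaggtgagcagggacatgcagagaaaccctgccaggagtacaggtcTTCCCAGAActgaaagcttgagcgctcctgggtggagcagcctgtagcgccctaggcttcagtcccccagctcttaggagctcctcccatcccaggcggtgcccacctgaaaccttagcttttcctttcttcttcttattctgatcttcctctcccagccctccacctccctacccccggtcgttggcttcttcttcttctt

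In NON mice the Il18r1 probe set (1421628_at) read 538.2, 373.3, 434.4, 359.6 and 464.7 at 4 weeks, against 178.6, 176.3, 86, 44.1 and 73 at 2 weeks. The lowest mouse of 4 weeks had over 300 units of signal and the highest of 2 weeks under 200, so the ages did not overlap. The difference was 3.89-fold (log2 difference 2.02, SE 0.33, limma adjusted p = 0.0025), and it was called in each of the 30 fits that left out 1 mouse and without the 6 mice named above. In a fit of the 10 NON mice alone the adjusted p was 0.065, and with the plain test of the methods 0.092. NOD mice read 123.7, 420.5, 143.4, 278.3 and 239.3 at 4 weeks, against 189.6, 247.6, 147.7, 183.9 and 257.9 at 2 weeks, and C57 mice 119.1, 282.1, 288.9, 186.9 and 318.7 at 4 weeks, against 244.5, 171.9, 313.8, 244.5 and 150.7 at 2 weeks. The ages overlapped in both strains, with log2 differences of 0.12 in NOD (95% interval -0.57 to 0.80) and 0.05 in C57 (95% interval -0.63 to 0.73). NON mice thus had the highest mean of the strains at 4 weeks, above every C57 mouse as for 1.52% of all probe sets, and the lowest at 2 weeks.

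Whether the age change itself differed between strains was tested directly. The NOD change was set against the mean change of the controls, and 0 of the 15 member probe sets were called, beside 0% of all, with 1 member probe set (Il18r1) at an unadjusted p under 0.05, beside 6.2% of all. For Il18r1 that difference was -0.91 on the log2 scale (95% interval -1.75 to -0.08, limma adjusted p = 0.79). An F-test of any difference among the age changes, added after the data were seen, called 0 member probe sets, beside 0.00261% of all. Il18r1 had the smallest value there, at an adjusted p of 0.55 and an unadjusted limma p of 0.00029.

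Il27ra was the other chain called in NON. Its mean was 423 ± 108 at 4 weeks and 180 ± 103 at 2 weeks (SD, n = 5), a 2.35-fold difference (log2 difference 1.41, SE 0.36, limma adjusted p = 0.04). The call was lost, at an adjusted p of up to 0.13, without any one of 6 NON mice (replicates 1, 2 or 5 of 4 weeks and replicates 1, 3 or 5 of 2 weeks). Replicate 5 of 2 weeks, at 33.8, moved the estimate most, to 0.95 without it. Without the 6 mice with low correlation or a high Gapdh ratio the adjusted p was 0.21. NOD and C57 had log2 differences of 0.60 (adjusted p = 0.67) and 0.32 (adjusted p = 0.97).

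Il10ra and Il21r were also separated by age in NON without being called. Il10ra (1448731_at) averaged 276 ± 31.9 at 4 weeks and 155 ± 64 at 2 weeks in NON (log2 difference 0.92, SE 0.27, limma adjusted p = 0.079), and Il21r had a log2 difference of 0.82 (SE 0.27, adjusted p = 0.13). With Il18r1, 3 of the 9 lead probe sets had every NON mouse of 4 weeks above every NON mouse of 2 weeks, beside 1.67% of all probe sets. In NOD 1 of the 9, Il17rb (1420678_a_at), the receptor of IL-25, had this pattern, beside 0.763% of all probe sets. It read 97.8, 108.7, 104.4, 123.1 and 114.6 at 4 weeks, against 60.5, 62.3, 59.9, 62.6 and 91.1 at 2 weeks in NOD (1.63-fold, log2 difference 0.64, SE 0.20, adjusted p = 0.27). Among the NOD mice of 2 weeks replicate 5 lay well above the others, which lay within a few units of each other.

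**Figure D3:**
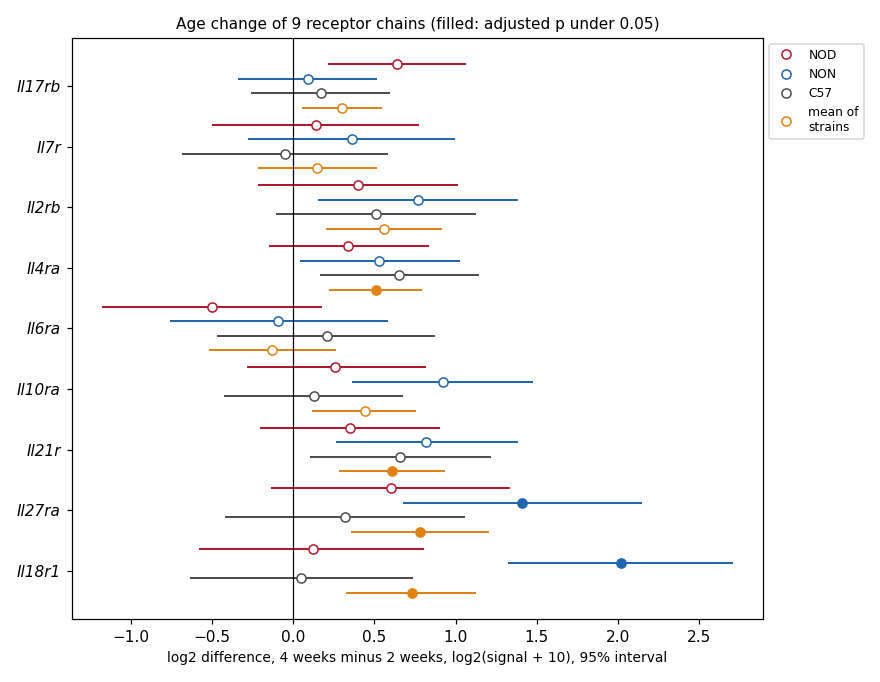
Age change of the lead probe set of each gene (horizontal axis, log2 difference between 4 and 2 weeks of log2(signal + 10), with its 95% interval) in NOD, NON, C57 and the mean of the strains, from top to bottom for each gene, filled where the adjusted p is under 0.05. The Il18r1 interval of NON, 1.33 to 2.70, lies above the intervals of NOD and C57.

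Averaged over the strains, an age change added to the comparisons after the data were seen, 4 of the 15 member probe sets (26.7%) were called and all were higher at 4 weeks. Among all probe sets 3.19% were called and 1.31% were called as higher. These were Il4ra (log2 difference 0.51, SE 0.14, limma adjusted p = 0.035), Il21r (0.61, SE 0.16, adjusted p = 0.023), Il27ra (0.78, SE 0.21, adjusted p = 0.031) and Il18r1 (0.73, SE 0.19, adjusted p = 0.031). The other 2 Il4ra probe sets were not called, with log2 differences of 0.06 (1423996_a_at, adjusted p = 0.96) and 0.07 (1447858_x_at, adjusted p = 0.92). Il4ra averaged 301 ± 57.1 at 4 weeks and 242 ± 79.3 at 2 weeks in NOD, 321 ± 71 and 217 ± 38.7 in NON, and 519 ± 137 and 323 ± 71.1 in C57 (SD, n = 5). The Il4ra and Il21r means were higher at 4 weeks in each strain, while most of the Il18r1 change came from NON, whose mice also enter this mean. Leaving out NOD replicate 3 of 2 weeks gave a count of 1, and leaving out any one of 8 other mice a count of 2 (NOD replicate 4, NON replicates 1, 2 or 5 and C57 replicates 3 or 5 of 4 weeks, NON replicate 5 and C57 replicate 2 of 2 weeks). Without the 6 mice named above the count was 0, with an adjusted p of 0.14 for Il4ra, 0.16 for Il27ra and 0.066 for Il18r1. Il21r was called in each of the 30 fits that left out 1 mouse, and without the 6 mice its log2 difference was 0.57 (adjusted p = 0.07).

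The remaining chains were called in no comparison of the main fits. Il10ra was called between the ages in NON when NON replicate 2 of 2 weeks, the mouse with the highest Gapdh ratio, was left out. Il6ra (1422270_a_at) averaged 207 ± 95.6 in NOD, 175 ± 17.9 in NON and 229 ± 67.6 in C57 at 4 weeks, and 259 ± 39.1, 190 ± 42.9 and 202 ± 76.7 in NOD, NON and C57 at 2 weeks (SD, n = 5). The NOD value of 4 weeks included 46.4 in replicate 3, the mouse least like its group. Its second probe set (1452416_at) had a log2 difference of 1.14 between the ages in NON (limma adjusted p = 0.37), against -0.09 on the lead probe set. Il10ra differed by -0.07 between NOD and C57 over both ages (95% interval -0.46 to 0.31) and by 0.05 between NON and C57 (95% interval -0.34 to 0.43). Its dimmer kept probe set (1437808_x_at) had a log2 difference of 0.75 between the ages in NON (adjusted p = 0.46). For Il17rb these differences were 0.02 (95% interval -0.27 to 0.32) and -0.12 (95% interval -0.41 to 0.18).

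Partners, ligands and signaling genes of these receptors were counted from lists, each gene by its brightest kept probe set. Of 33 other receptor chains listed, 26 were kept. Between the ages, averaged over the strains, 2 of the 26 were called, beside 3.19% of all probe sets, and both were higher at 4 weeks. They were the IL-1 decoy receptor gene Il1r2 (1.67-fold, limma adjusted p = 0.0027) and Il10rb, the partner of Il10ra (1.29-fold, adjusted p = 0.032). The second kept Il10rb probe set was not called and went the other way (log2 difference -0.16). Over the 26 genes the median log2 difference was 0.06, beside 0.01 over all probe sets. Over both ages 2 of the 26 were called between NON and C57, beside 4.71% of all probe sets, and 1 between NOD and C57, beside 5.24%. Il5ra, the IL-5 receptor chain, was lower in NON than in C57 (at 0.621 of C57, adjusted p = 0.026). Il6st, which encodes the gp130 chain shared by Il6ra and Il27ra, was higher in NOD and in NON than in C57, 2.96-fold (adjusted p = 3.4e-05) and 2.53-fold (adjusted p = 0.00022) on its brightest probe set, 1437303_at. The 4 Il6st probe sets did not all share this: 1 of the 4 was called, and the log2 differences ran from 0.10 to 1.71 between NOD and C57 and from -0.44 to 1.5 between NON and C57. Of 15 ligands, 8 were kept, and 0 were called between the ages in any strain, in the mean of the strains or between strains over both ages. The shares of all probe sets called were 3.19% in the mean of the strains and 6.99% across strains over both ages. With so few genes a count of 0 says little.

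Among kinases and STATs, Stat4 and Jak1 were higher at 4 weeks in NON. Of 10 kept genes of 11 listed these 2 were called in NON, beside 1.46% of all probe sets, 0 were called in NOD and 0 in C57, and the F-test among age changes called 0. Over the 10 genes the median log2 difference was 0.38 in NON, 0.25 in NOD and 0.19 in C57. Stat4, the transcription factor that carries IL-12 signals, read 300, 422.5, 257, 253.6 and 230.9 in NON mice of 4 weeks, against 81.7, 137.6, 44.7, 77.2 and 14.4 at 2 weeks (4.12-fold, log2 difference 2.10, SE 0.31, limma adjusted p = 0.0011). The ages did not overlap. Jak1, the kinase used by most of these receptors, was 1.95-fold higher at 4 weeks in NON (adjusted p = 0.013). Averaged over the strains, Stat4 (1.96-fold, adjusted p = 0.00015), Jak1 (1.4-fold, adjusted p = 0.01) and Stat6, which acts below Il4ra (1.27-fold, adjusted p = 0.027), were higher at 4 weeks. In that mean, as in NON, 2 of the 3 kept Jak1 probe sets were called. For Stat6 1 of the 2 kept probe sets was called in the mean. The uncalled ones were also higher at 4 weeks. Over both ages Stat4 was at 0.505 of C57 in NON (adjusted p = 0.00035), and Stat6 at 0.744 of C57 in NOD (adjusted p = 0.028). Each was 1 of the 10 called in its contrast, beside 4.71% of all probe sets for NON and 5.24% for NOD.

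Of the 6 kept adaptor genes of the IL-18 and IL-17 receptors (7 listed), 0 were called between the ages. In the mean of the strains 3.19% of all probe sets were called, so a count of 0 among 6 genes says little. Traf5 and Traf3ip2 (the gene of Act1, an adaptor of IL-17 family receptors) were lower than in C57 over both ages in NOD (at 0.673 and 0.658, limma adjusted p = 0.021 and 0.033) and in NON (at 0.664 and 0.667, adjusted p = 0.0084 and 0.028). These were the 2 of the 6 called in each contrast, beside 5.24% of all probe sets for NOD and 4.71% for NON. Among 17 feedback and target genes, all kept, Socs3, an inhibitor induced by gp130 receptors, was 2.48-fold higher at 4 weeks in the mean of the strains (adjusted p = 0.0018), with 3 of its 3 probe sets called. Ptpn6, a phosphatase that dampens receptor signaling, was at 0.712 of C57 in NOD (adjusted p = 0.0038) and 0.749 in NON (adjusted p = 0.015). For Ptpn6 and for Traf5, 1 of the 2 kept probe sets was called in each contrast with C57. The other probe set of each gene was also lower than in C57. Socs7 and Pias1, inhibitors of cytokine signaling, were lower in NOD than in C57 as well (at 0.625 and 0.744, adjusted p = 0.011 and 0.023). Other probe sets of Socs7 and Pias1, where kept, are not given here. Of the 17 genes, 3 were called between NOD and C57, beside 5.24% of all probe sets. Between NON and C57 1 was called, beside 4.71%, and in the mean age change 1, beside 3.19%.

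**Figure D4:**
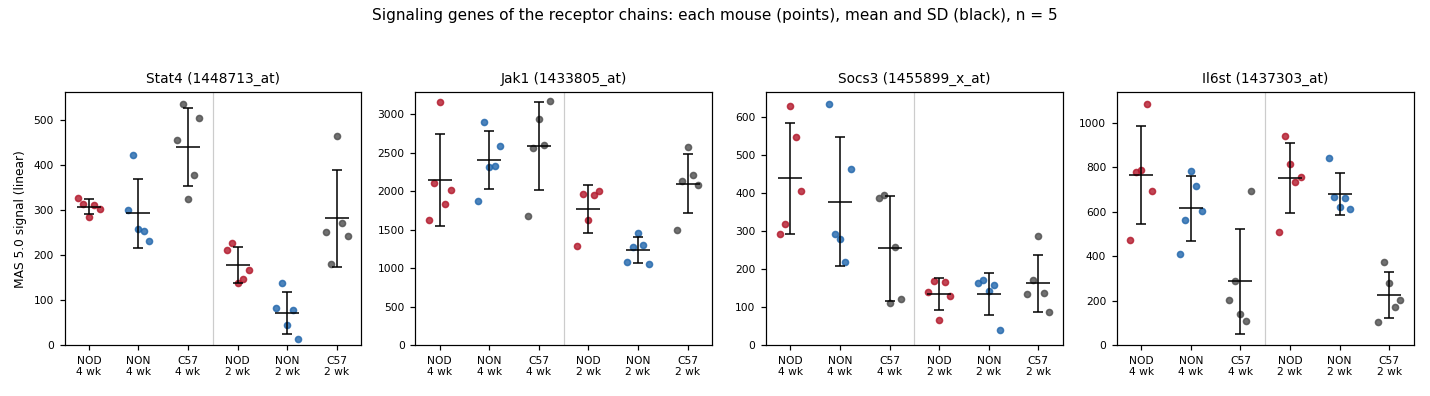
Signal of the brightest probe sets of Stat4, Jak1, Socs3 and Il6st (vertical axis, linear MAS 5.0 signal from 0) in each mouse (points) of NOD, NON and C57 at 4 weeks and at 2 weeks, with the mean and SD of each group in black (n = 5). The Stat4 points of NON lie between 230.9 and 422.5 at 4 weeks and between 14.4 and 137.6 at 2 weeks, and the Il6st points of C57 lie below those of NOD and NON except in 1 mouse of 4 weeks.

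Of the cell type markers, those of T cells were lower in NON than in C57 and higher at 4 weeks in NON. Among the receptor chains only Il27ra was called in both of these comparisons, and Il18r1 was called with age alone. In these bulk samples fewer cells of a type and less RNA per cell cannot be told apart. Of 12 T cell markers listed, 11 were kept, and at 4 weeks their summed signal was 7560 to 9520 in NOD, 4800 to 6200 in NON and 8740 to 13100 in C57, against 3890 to 7350, 1310 to 3260 and 5550 to 9870 in NOD, NON and C57 at 2 weeks. Between the ages 8 of the 11 were called in NON, 0 in NOD and 0 in C57, and 11 of the 11 in the mean of the strains, in each case higher at 4 weeks. The shares of all probe sets called were 1.46% in NON, 0.146% in NOD, 0.46% in C57 and 3.19% in the mean. Between NON and C57 over both ages 10 of the 11 were lower in NON, beside 2.71% of all probe sets. Between NOD and C57 3 of the 11 were lower in NOD, beside 2.94% of all. Between NOD and NON 6 of the 11 were higher in NOD, where 0 of the 15 member probe sets were called. The F-test across strains called 5 of the 11 at 4 weeks and 4 at 2 weeks, again beside 0 member probe sets. Other markers ran the opposite way between strains. Between NON and C57 over both ages 5 of 9 granulocyte precursor markers (median log2 difference 0.66) and 3 of 5 kept erythroid markers (1.37) were higher in NON. Between NOD and C57 3 of 7 macrophage and monocyte markers (0.64) were higher in NOD. Of all probe sets 4.71% were called between NON and C57 and 5.24% between NOD and C57, in either direction. For 7 kept NK cell markers of 8 listed, the summed signal in NON was 4630 to 6400 at 4 weeks, against 1230 to 3700 at 2 weeks, with 3 called higher (Ncr1, Gzma and Eomes), while NOD had 2220 to 5260 at 4 weeks and 2270 to 3670 at 2 weeks and C57 2750 to 4790 and 1700 to 4090. Between strains over both ages 1 of the 7, Ncr1, was called, and it was higher in NON and in NOD than in C57.

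B cell markers (7 kept of 8) summed to 25700 to 32900 in NON at 4 weeks and 12000 to 27300 at 2 weeks, with 2 of the 7 called (Cd22 and Cr2), and 0 of the 7 were called between NON and C57 over both ages. Markers of lymphocyte precursors such as Rag1 and Vpreb1 ran the other way with age: 6 of 6 were lower at 4 weeks in the mean of the strains, as were 7 of the 9 granulocyte precursor markers. The lymphocyte precursor sum was 711 to 1460 in NOD, 2080 to 2250 in NON and 1050 to 2380 in C57 at 4 weeks, against 1770 to 6140, 2830 to 8520 and 2830 to 6170 at 2 weeks. No kept T, NK or B cell marker had a group mean under 50, the signal used by the filter. The kept pancreatic acinar markers had 0 genes under 50 in NOD of 4 weeks too. The level therefore cannot show that a cell type was present. The label names the samples as spleen leukocytes. NON replicate 5 of 2 weeks, lowest for Il27ra, also had the lowest T cell sum (1310), NK cell sum (1230) and B cell sum (12000) of all mice. Its erythroid marker sum (13500) was the highest of all mice. The part of these markers in the receptor differences was not tested.

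**Figure D5:**
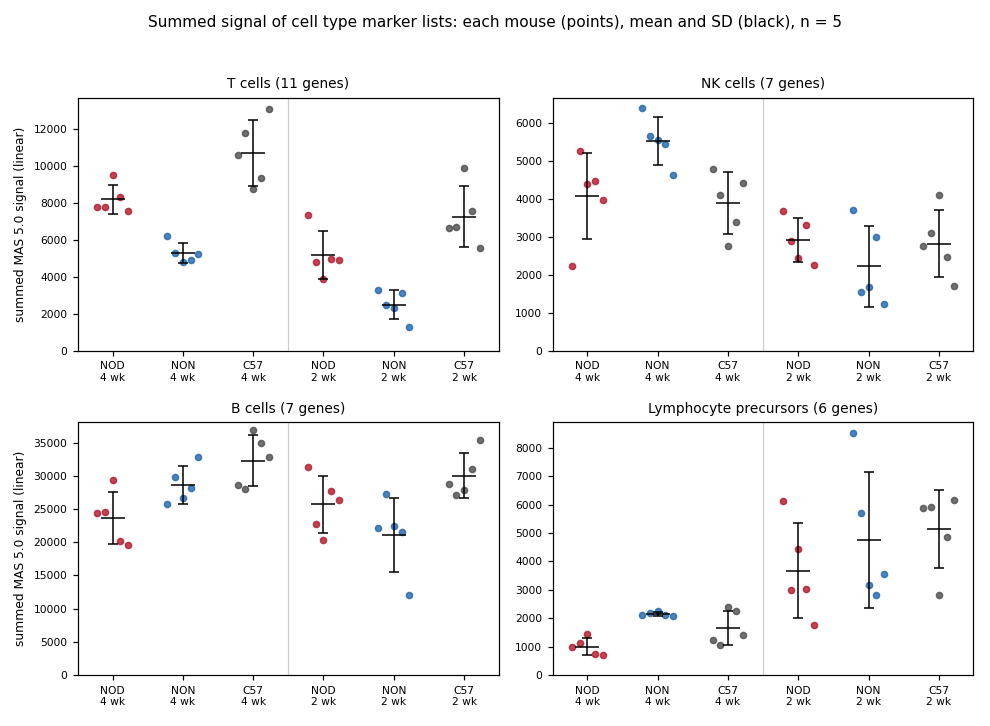
Summed signal (vertical axis, linear MAS 5.0 signal from 0) of the kept markers of T cells, NK cells, B cells and lymphocyte precursors in each mouse (points) of NOD, NON and C57 at 4 weeks and at 2 weeks, with the mean and SD of each group in black (n = 5). In NON, the T cell sums of 4 weeks, 4800 to 6200, lie above those of 2 weeks, 1310 to 3260, and the precursor sums lie below.

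The genes most like each receptor chain over the 30 mice, by Pearson correlation of log2(signal + 10), are given by name alone. They share arrays, mice and groups with the receptor, so the values are descriptions. Closest to Il27ra were Ctsw (r = 0.94), Rnf114 (0.92) and Tecpr1 (0.91), and closest to Il2rb were Rhof (0.88), Klf2 (0.84) and Oas3 (0.83). Il4ra lay nearest to Ppp1r13b (0.87), Rasgef1b (0.85) and Nfatc1 (0.85), Il21r to Ccr7 (0.83), Cxcr5 (0.83) and Plcxd2 (0.83), and Il18r1 to Lrrk2 (0.84), Sesn1 (0.80) and Il16 (0.78). Il7r was most like Zfp53 (0.78), Rnf2 (0.77) and Slain2 (0.77), and Il6ra most like Tsr3 (0.83), Zfp182 (0.78) and Gm11567 (0.77). For Il10ra the nearest genes were Tmem30a (0.73), Znrf2 (0.73) and Napsa (0.72), and for Il17rb they were Pdcd1lg2 (0.67), Dok4 (0.65) and Fchsd1 (0.65).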

How the data were processed

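RNA from spleen leukocytes of 30 mice was hybridized to MOE430A and MOE430B arrays (60 arrays) by the authors. The deposited values are MAS 5.0 intensity signals on a linear scale, computed by the authors from perfect match and mismatch probes and globally scaled. The methods name a target of 100, while each deposited array has a 2% trimmed mean of 250. Detection calls were not used here. Control probe sets were dropped and probe sets on both arrays were taken from 430A. Genes were named from the platform annotation: 34945 probe sets had 1 symbol, 932 several and 9160 none. Unmatched sample columns numbered 0.

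Tests used limma 3.58.1 in R 4.3.3 on log2(signal + 10). Strains were compared in the 15 mice of an age and ages in a fit of all 30 mice, as moderated F-tests or contrasts. The fits were tested on simulated data. Members and gene lists were chosen with earlier results of these data known. Every member probe set is named, genes whose lead probe set passed a test are described in full, and up to 3 genes of a list are named each way. Alternatives were the pseudocount, the filter, quantile normalization, a variance trend, the other fit, a replicate block, and each mouse left out. The methods' plain tests were also run, with the same adjustment as the main tests. Added after the data were seen were both averaged comparisons, the F-test among age changes and the fits without 6 mice. Numbers of the mice mark no pairing in the labels, and mice correlated at up to 0.905 within a group, so none was counted as a duplicate.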

Additional observations from a re-analysis of the deposited data

Results flagged for a closer look

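Of the 54 combinations of a lead probe set and a group, 6 held 1 mouse far from the other 4, at a gap to the nearest mouse of over 0.71 of the group's range. Chance alone flags about 1 in 20 groups. NOD replicate 3 of 4 weeks, the mouse least like its group across all probe sets, was high for Il7r (1188.2, against 696.7 to 788.3 in the others, gap 0.814 of the range) and for Il21r (349.9, against 140.2 to 193.8, gap 0.744). NOD replicate 5 of 2 weeks was high for Il17rb (91.1, against 59.9 to 62.6, gap 0.913) and for Il2rb (568.2, against 164.9 to 242.8, gap 0.807). NON replicate 3 of 2 weeks was low for Il17rb (55.5, against 75.3 to 81.2, gap 0.77), and C57 replicate 1 of 2 weeks was low for Il4ra (199.6, against 331.9 to 375.1, gap 0.754). No age change of a lead probe set was called as different between the strains.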

How the results depend on the processing

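Counts of 0 between strains at 4 weeks, in NOD against the controls at either age, between ages in NOD and in C57, and for the difference of age changes stayed at 0 under every alternative run, each mouse left out included. Between strains at 2 weeks the count was 1 in the fit of all 30 mice and 0 under the others. The 2 member probe sets called between ages in NON became 0 in a fit of the NON mice alone, 0 with the methods' plain test and 1 without the 6 mice in doubt, and 1 to 3 with 1 mouse left out. Replicate numbers pair no mice in the labels, and 8 of 75 same-numbered pairs of mice had deviations correlated over 0.1. With the replicate number as a block the NON count was 1 (Il18r1) and the other counts stayed within 1.5 times. The 4 called in the mean age change became 0 without the 6 mice, and 1 to 5 with 1 mouse left out. The 5 called between strains over both ages became 3 without the 6 mice, and 2 to 6 with 1 mouse left out. No named difference changed sign. The causes were not tested. The number of arrays and dim signals limit these calls.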
